A study of Mus musculus with 2 samples.

Results

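The antioxidant and metallothionein genes described here were 10 genes taken by symbol from the 32285 genes of a single-cell RNA sequencing study of mouse retina: Sod1, Sod2, Cat, Gpx1, Gpx4, Prdx1, Prdx3, Mt1, Mt2 and Mt3. Short-wavelength light was compared with full-spectrum white light, each given from postnatal day 14 for 2 weeks. Each condition had 1 library, so no test was possible and every light difference is a difference between 2 libraries. Strain, sex, genotype and the number of animals per library are not given in the sources used here.

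Cells detoxify reactive oxygen in steps. Superoxide dismutases turn superoxide into hydrogen peroxide, with Sod1 coding for the cytosolic and Sod2 for the mitochondrial enzyme. Hydrogen peroxide is then removed by catalase (Cat) in peroxisomes, by glutathione peroxidases (Gpx1 for soluble peroxides, Gpx4 for lipid peroxides in membranes) and by peroxiredoxins (Prdx1 in the cytosol, Prdx3 in mitochondria). Metallothioneins are small cysteine-rich proteins that bind zinc and copper and can scavenge radicals, and Mt3 is the member first known from brain. Photoreceptors have membranes rich in polyunsaturated lipids and a high oxygen demand, and Müller glia, which span the retina, support them metabolically.

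The metallothionein genes are shown with sequence because they differed most between cell classes. They lie beside each other on chromosome 8 of mm10, in the order Mt3 (chr8:94152607-94154146), Mt2 (chr8:94172664-94173568) and Mt1 (chr8:94179082-94180327), all on the plus strand. The lines give the 250 bases before each RefSeq gene start, 5′ to 3′, from the RefSeq table for GRCm38.p6. These windows span chr8:94178839-94179088 for Mt1, chr8:94172368-94172617 for Mt2 and chr8:94152357-94152606 for Mt3. Capitals mark the core of the metal response element, TGCACNC or TGCGCNC, on either strand.
Mt1: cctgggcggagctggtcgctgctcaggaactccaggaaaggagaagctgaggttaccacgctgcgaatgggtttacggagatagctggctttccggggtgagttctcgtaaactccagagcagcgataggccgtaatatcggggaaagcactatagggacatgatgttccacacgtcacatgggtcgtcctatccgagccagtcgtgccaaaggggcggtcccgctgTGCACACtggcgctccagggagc
Mt2: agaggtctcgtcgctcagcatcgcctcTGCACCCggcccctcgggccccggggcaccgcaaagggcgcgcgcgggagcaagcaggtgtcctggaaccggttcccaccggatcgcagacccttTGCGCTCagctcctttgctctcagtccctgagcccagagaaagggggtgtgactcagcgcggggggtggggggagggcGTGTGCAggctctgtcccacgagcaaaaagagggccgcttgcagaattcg
Mt3: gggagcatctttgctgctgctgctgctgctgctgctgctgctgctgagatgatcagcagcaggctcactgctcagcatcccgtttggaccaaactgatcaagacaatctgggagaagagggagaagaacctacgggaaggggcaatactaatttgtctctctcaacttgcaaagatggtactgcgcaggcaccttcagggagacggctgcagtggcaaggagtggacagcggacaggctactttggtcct
The Mt2 window held 3 cores, the last of them on the minus strand, the Mt1 window held 1 and the Mt3 window held 0. Of 32851 windows of the same length, 21.4% held at least 1 core and 5.17% at least 2. The antioxidant response element core, TGACNNNGC, stood in the windows of Mt2, Prdx1 and Sod1, once each and without overlap in Mt2 with the capitals, against 10.2% of all windows. The core of the photoreceptor factor CRX, TAATCC, stood in none of the windows of the 10 genes, against 6.25% of all windows, and Gpx4 had 4 windows for its alternative starts. GENCODE places the start of Mt2 46 bases further downstream than RefSeq, so its window can miss part of the proximal promoter. Where most Mt1 transcripts start was not tested either, so the Mt1 window can lie upstream of cores near that start, and the counts describe these windows alone.

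The other genes lie on different chromosomes of mm10. Sod1 (chr16:90220754-90226329) and Sod2 (chr17:13006846-13040063) are on plus strands, as are Gpx1 (chr9:108338903-108340343), Gpx4 (chr10:80047166-80056439) and Prdx1 (chr4:116685544-116700822). Prdx3 (chr19:60864051-60874556) and Cat (chr2:103453849-103485160) are on minus strands. Sod1 overlaps Scaf4, and Mt2 overlaps the antisense gene Gm45774, both on the opposite strand. Whether reads were assigned by strand is not given in the sources used here, so reads of these pairs may not be told apart. A named pseudogene copy was annotated for Gpx4 alone among the 10 (Gpx4-ps2), and it was not a row of the count tables.

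The short-wavelength library held 16106 barcodes and 51681469 unique molecular identifiers (UMIs), and the white-light library 5707 barcodes and 20952589 UMIs. Medians were 2434 and 2784 UMIs per barcode, and 26 barcode sequences occurred in both libraries. Cells were placed in classes by minimum UMIs of marker genes, and none of the 10 genes was a marker. Under short-wavelength light 89 Müller glia, 46 microglia or macrophages, 171 bipolar cells, 405 cones and 13252 rods were kept, against 39, 23, 67, 172 and 4994 under white light. The defining markers of each class were found in it. In Müller glia, summed astrocyte markers came to 7.47 CPM under short-wavelength light and 9.93 CPM under white light (UMIs per 1000000 UMIs of the class). The pigment epithelium list summed to 265 and 222 CPM there, with 2 and 1 of 8 markers found (Rrh, and Pmel under short-wavelength light) and Rpe65 at 0. The endothelial list summed to 2045 and 1827 CPM, all from Flt1 and Kdr, with Cldn5, Pecam1 and Cdh5 at 0. The amacrine and horizontal list summed to 1162 and 976 CPM, with 4 and 3 of 10 markers found and Gad1, Slc32a1 and Lhx1 at 0. Amacrine and horizontal cells, with 6 and 2 cells, were too few to compare. Intervals throughout are at 95% and cover counting error alone.

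Retinal cell classes held different sets of these genes. Metallothionein RNA lay in Müller glia and bipolar cells, and Mt1 also in microglia, where Mt2 had 50.7 CPM under short-wavelength light and 5.35 CPM under white light. Metallothionein RNA was scarce in both photoreceptor classes. Gpx1 RNA was highest in microglia, Prdx1 in Müller glia and microglia, and Sod2 and Gpx4 in cones. This order was read from 5 classes in each library, and 8 of the 10 genes had at least 1 UMI in every class and library.

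**Figure D1:**
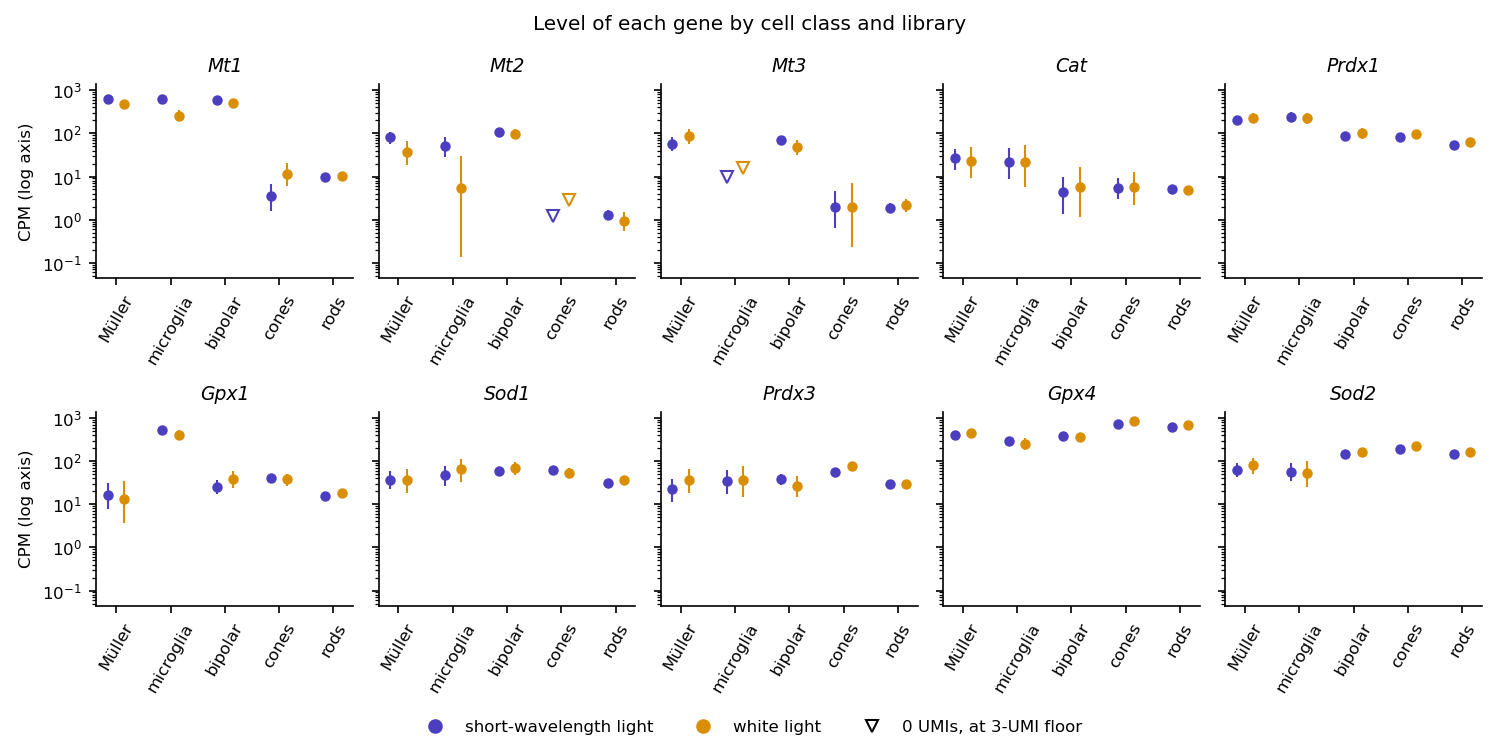
Level of each of the 10 genes in CPM (log axis) in 5 cell classes, with short-wavelength light (blue) left of white light (orange), exact Poisson 95% intervals and open triangles at the 3-UMI floor where no UMI was found. Mt1 stands near 600 CPM in bipolar cells and Müller glia of the short-wavelength library and near 10 CPM in rods.

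Mt1 stood at 622 CPM in Müller glia under short-wavelength light (557 to 692) and 470 CPM under white light (396 to 554). In bipolar cells it stood at 590 CPM (546 to 635) and 511 CPM (452 to 576), and in microglia at 621 CPM (537 to 714) and 257 CPM (189 to 341). Rods had 9.52 CPM (8.56 to 10.6) and 10.1 CPM (8.66 to 11.8), and cones 3.56 CPM (1.63 to 6.76) and 11.6 CPM (5.999 to 20.3). The 3 non-photoreceptor classes thus lay far above both photoreceptor classes in each library. Müller glia and bipolar cells were not told apart for Mt1, with bipolar cells at 1.09 times the Müller level under white light (0.884 to 1.34).

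Among single Müller glia, 76.4% held a Mt1 UMI under short-wavelength light and 79.5% under white light, at median depths of 5585 and 7494 UMIs. Among rods, 2.43% and 3.16% did, at 2322 and 2726 UMIs. With each cell thinned to 1000 UMIs, which left out 4 and 1 Müller glia, the Müller shares were 37.65% (27.4% to 48.8%) and 36.8% (21.8% to 54.0%) and the rod shares 0.899% (0.745% to 1.07%) and 1.197% (0.908% to 1.55%). Rlbp1, a glial retinoid-binding protein gene that rods should lack, was found in 3.29% and 3.22% of rods before thinning. The Mt1 share in rods did not exceed that share, and Rlbp1 had 1094 and 1042 CPM in Müller glia, above Mt1. Glial genes above Mt1 in Müller glia differed in rods. Slc1a3 (1552 and 1440 CPM in Müller glia) had 3.01 and 3.08 CPM in rods. Glul (5924 and 4875 CPM in Müller glia) had 54.4 and 57.4 CPM in rods, against 9.52 and 10.1 CPM for Mt1. Whether the Mt1 RNA in rods came from other cells was not tested. The middle Müller glial cell had 423 CPM of Mt1 under short-wavelength light and 330 CPM under white light. Lower and upper quartiles were 104 and 845 CPM and 134 and 630 CPM. These quartiles rest on 333 UMIs in 89 cells and 142 UMIs in 39 cells. They also carry counting error and cell depth, and how much the level itself varied between cells was not tested.

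Mt2, the other metallothionein gene that most tissues use, had 80.3 CPM (58.1 to 108) in Müller glia under short-wavelength light and 36.4 CPM (18.2 to 65.1) under white light. Bipolar cells had 107 CPM (88.9 to 127) and 96.9 CPM (72.1 to 127). Rods had 1.30 and 0.947 CPM, and cones had no Mt2 UMI in 405 and 172 cells. In cones 3 counts would be 1.19 and 2.902 CPM, and the intervals reach up to 1.46 and 3.57 CPM. Müller glia and bipolar cells thus lay above both photoreceptor classes in Mt2 in each library. Microglia held 16 UMIs of it under short-wavelength light and 1 under white light. These came from 8 cells and 1 cell, and the white-light ratio of microglia over rods (5.65, 0.135 to 36.4) does not tell the classes apart.

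Mt3 had 57.9 CPM (39.3 to 82.2) in Müller glia under short-wavelength light and 86.0 CPM (56.2 to 126) under white light, and 70.1 CPM (55.7 to 87.0) and 47.5 CPM (30.7 to 70.1) in bipolar cells. No Mt3 UMI was found in 46 and 23 microglia, where 3 counts would be 9.50 and 16.1 CPM. Unlike Mt1, Mt3 was thus detected in Müller glia and bipolar cells but not in microglia at this depth. Rods had 1.88 and 2.19 CPM and cones 1.98 and 1.94 CPM.

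The bipolar class joins several kinds of cell. Bipolar cells were divided, after the class levels had been seen, by whether the rod bipolar markers Prkca and Car8 had more UMIs than the cone bipolar markers Vsx1, Scgn and Grik1. Mt1 stood at 582 CPM (532 to 635) in 127 cells with more rod bipolar markers under short-wavelength light, and at 555 CPM (487 to 631) in 55 such cells under white light. In cells with more cone bipolar markers it stood at 498 CPM (407 to 602, 31 cells) and 259 CPM (156 to 404, 9 cells). Both kinds held Mt1 far above rods. Mt2 stood at 111 CPM (89.9 to 136) and 115 CPM (85.3 to 152) in the first kind. In the second it stood at 56.9 CPM (29.4 to 99.3) and 0 CPM, where the 9 white-light cells gave no UMI. Mt3 went the other way under short-wavelength light, at 56.65 CPM (41.9 to 74.9) and 90.0 CPM (54.2 to 141). Under white light Mt3 had 47.1 and 13.6 CPM, the latter from 1 UMI. Cells with equal UMIs of both marker sets (13 and 3) had 869 and 499 CPM of Mt1. They had 180 and 71.3 CPM of Mt2, and 148 and 143 CPM of Mt3.

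Gpx1, a selenoprotein, had 513 CPM (437 to 598) in microglia under short-wavelength light and 412 CPM (325 to 515) under white light. Cones had 40.0 CPM (32.5 to 48.5) and 37.7 CPM (26.8 to 51.6), and bipolar cells 25.6 and 38.0 CPM. Müller glia had 16.8 CPM (7.69 to 31.9) and 13.2 CPM (3.61 to 33.9), and rods 15.2 CPM (14.0 to 16.5) and 17.8 CPM (15.9 to 19.95). Microglia stood apart, at 12.8 times (9.96 to 16.6) the next class under short-wavelength light and 10.9 times (6.56 to 18.7) under white light. Müller glia and rods, at the low end, were not told apart.

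Gpx4, also a selenoprotein, ran the other way. Cones had 732 CPM (699 to 766) under short-wavelength light and 848 CPM (793 to 907) under white light, and rods 614 CPM (607 to 622) and 676 CPM (664 to 689). Müller glia had 409 and 460 CPM, bipolar cells 390 and 361 CPM, and microglia 288 and 252 CPM. The order was cones, rods, Müller glia, bipolar cells and microglia in both libraries. Of its 4 steps, that between Müller glia and bipolar cells was within counting error under short-wavelength light (1.05 times, 0.889 to 1.24), and the others had intervals that leave out 1 in both libraries.

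Prdx1 had 207 CPM (171 to 250) in Müller glia under short-wavelength light and 232 CPM (181 to 293) under white light, and 244 and 225 CPM in microglia. Bipolar cells had 86.3 and 101 CPM, cones 81.5 and 96.7 CPM, and rods 54.1 and 64.4 CPM. Müller glia and microglia were not told apart, nor were bipolar cells and cones. Its mitochondrial relative Prdx3 showed no such glial excess, with 22.4 and 36.4 CPM in Müller glia, 54.6 and 75.5 CPM in cones and 29.4 and 29.9 CPM in rods.

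Sod2 had 190 CPM (173 to 208) in cones under short-wavelength light and 227 CPM (199 to 258) under white light. Bipolar cells had 147 and 160 CPM and rods 145 and 163 CPM, and these 2 classes were not told apart. Müller glia had 63.5 CPM (44.0 to 88.7) and 79.4 CPM (50.9 to 118), and microglia 57.0 and 53.5 CPM. All 3 neuronal classes thus lay above both glial classes for this mitochondrial enzyme. Sod1 was flatter, with class levels of 31.3 to 60.9 CPM under short-wavelength light and 36.4 to 68.4 CPM under white light. Cat had 26.2 CPM (14.3 to 43.9) in Müller glia under short-wavelength light and 23.2 CPM (9.31 to 47.7) under white light, 22.2 and 21.4 CPM in microglia, and 4.27 to 5.81 CPM in bipolar cells, cones and rods.

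Glial and photoreceptor defence was compared directly as the ratio of Müller glia over rods within each library. Müller glia had more RNA of all 3 metallothionein genes, Cat and Prdx1, and less of Sod2. Gpx4 was lower by less than 2-fold, and the intervals of Gpx1, Prdx3 and Sod1 included 1. A gene was called when its ratio passed 2-fold with an interval that leaves out 1 in both libraries. By this rule 5 of the 10 genes were higher in Müller glia, against 13.2% of 13266 genes tested, and 1 was lower, against 8.93%. The median log2 ratio of the 10 genes was 0.93 under short-wavelength light and 0.88 under white light, beside −0.20 and −0.23 over all genes tested. The median was above 0 against rods but not against cones. With cones in place of rods the median of the 9 genes tested was −0.64 and −0.49, beside −0.14 and −0.15 over all genes tested. By the same rule 4 of these 9 genes were higher in Müller glia than in cones and 3 were lower. The share of all genes called against cones is not given here. Mt1, Mt2, Mt3 and Prdx1 had higher levels in Müller glia than in cones in both libraries.

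**Figure D2:**
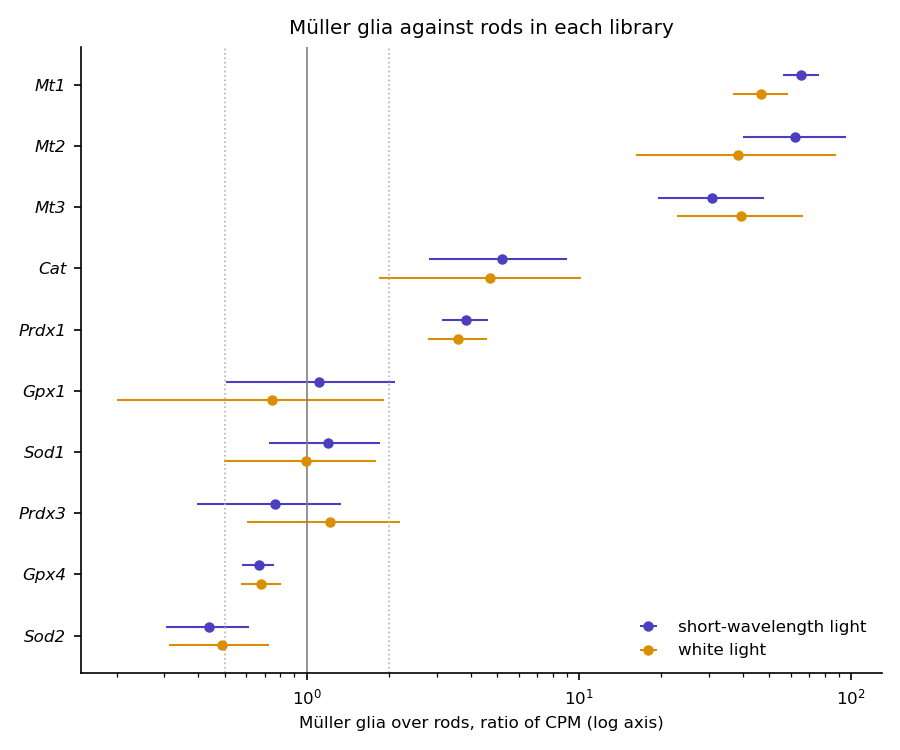
Ratio of CPM in Müller glia over rods (log axis) for each gene, short-wavelength light (blue) above white light (orange), with exact 95% counting intervals and dotted lines at 2-fold. Mt1, Mt2 and Mt3 lie between 30.8 and 65.3 times, while Sod2 lies below 1 in both libraries.

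Mt1 was 65.3 times as high in Müller glia as in rods under short-wavelength light (56.1 to 76.1) and 46.4 times under white light (36.9 to 58.3). Mt2 was 62.0 times (40.2 to 95.3) and 38.4 times (16.1 to 88.2) as high, and Mt3 30.8 times (19.5 to 47.7) and 39.3 times (22.8 to 66.7). These 3 ratios were the largest of the 10 genes in each library. Cat was 5.23 times (2.81 to 9.0) and 4.72 times (1.84 to 10.2) as high, on 14 and 7 Müller UMIs, and Prdx1 3.83 times (3.14 to 4.64) and 3.597 times (2.78 to 4.58). The Sod2 ratio was 0.439 (0.304 to 0.614) and 0.487 (0.311 to 0.726), and that of Gpx4 0.666 (0.580 to 0.760) and 0.680 (0.571 to 0.804). With cells thinned to 1000 UMIs, Mt1 and Prdx1 were still called higher and no gene was called lower.

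RNA released from broken cells enters all droplets, and marker genes outside their own class give a measure of it. Rods held the 8 Müller markers at 0.162% to 0.918% of their Müller level under short-wavelength light (median 0.2997%) and at 0.199% to 1.18% under white light (median 0.351%). Mt1 in rods stood at 1.53% and 2.15% of its Müller level, Mt2 at 1.61% and 2.60%, and Mt3 at 3.24% and 2.55%. These percentages lie above every Müller marker, but bipolar cells hold the same 3 genes. Rods held 12 bipolar markers at 0.212% to 16.2% of their bipolar level (median 0.269%) and at 0.243% to 14.7% (median 0.468%). The 3 metallothionein genes stood at 1.21% to 2.68% and 0.978% to 4.61%, above most of these markers. The top of the marker range is Prkca alone, with 28411 and 13582 UMIs in rods, and the next marker, Scgn, stood at 2.06% and 4.09%. In the other direction, Müller glia held the 7 rod markers at 18.3% to 22.8% and 18.9% to 28.5% of their rod level. Sod2 in Müller glia stood at 43.9% and 48.7% of its rod level, above every rod marker. How much of the rod level of a metallothionein gene, or of the Müller level of Sod2 and Gpx4, is released RNA was not tested.

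**Figure D3:**
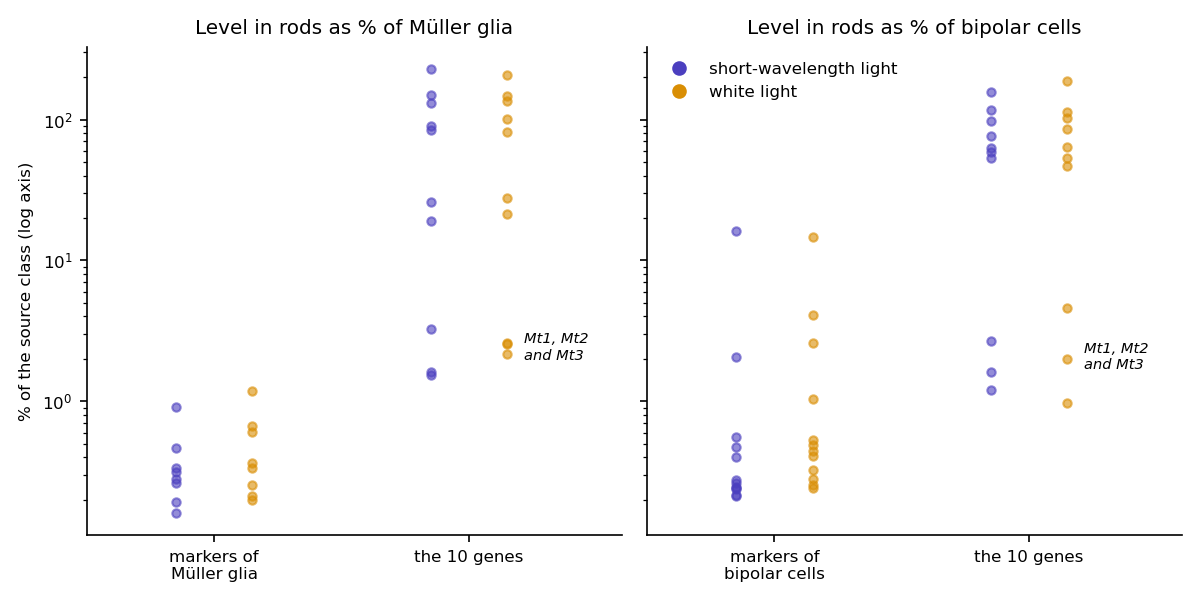
Level in rods as a percentage of the level in Müller glia (left) and in bipolar cells (right), on a log axis, for marker genes of the source class and for the 10 genes, short-wavelength light in blue and white light in orange. Mt1, Mt2 and Mt3 lie at 1.53% to 3.24% of Müller glia, just above the markers, and the other 7 genes lie far above.

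Measured against rods, the other classes differed in which genes they held. In microglia 4 of the 10 genes were called higher (background 11.6%), namely Gpx1, Prdx1, Cat and Mt1, and 2 were called lower (background 10.5%), namely Gpx4 and Sod2. Gpx1 was 33.8 times (28.2 to 40.2) as high in microglia as in rods under short-wavelength light and 23.1 times (17.8 to 29.8) under white light. In bipolar cells only the 3 metallothionein genes were called higher (background 13.2%) and 0 lower (background 10.0%), with Mt2 at 82.4 times (58.8 to 117) and 102 times (57.4 to 192) the rod level. In cones 1 gene was called higher (background 7.87%) and 0 lower (background 4.13%). That gene was Gpx1, at 2.63 times (2.11 to 3.25) and 2.12 times (1.48 to 2.96) the rod level, while Sod2, Gpx4 and Prdx1 were above rods by less than 2-fold with intervals that leave out 1. No metallothionein gene passed 11.6 CPM in either photoreceptor class.

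A wider list of 69 genes of glutathione, thioredoxin, iron and metal handling gives the setting of the 10. Of 60 tested in Müller glia over rods, 16 were higher and 5 lower by the same rule, against the 13.2% and 8.93% of all genes tested, so the lower count is near the background. The median log2 ratio was 0.17 under short-wavelength light and 0.11 under white light, beside −0.20 and −0.23 over all genes. The highest were Cp (ceruloplasmin, a copper-carrying ferroxidase, 1545 and 1770 CPM in Müller glia against 10.2 and 13.9 CPM in rods), Gpx8, Trf (transferrin), Gstt1, Txnip (an inhibitor of thioredoxin), Prdx6, Selenop (a selenium carrier) and Gsta4. Prdx6, a peroxiredoxin that repairs membrane lipids, had 629 and 559 CPM in Müller glia against 13.3 and 13.1 CPM in rods. It followed the same direction as its relative Prdx1. Lower in Müller glia were Me1 (malic enzyme, a source of NADPH, 31.8 and 33.1 CPM against 115 and 122 CPM in rods), Msra, Ggt7, Sephs2 and Gstp1.

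Genes whose class pattern was most like that of 4 members were ranked by Pearson's r over 10 values (5 classes in each of 2 libraries), which share depth and library. Nearest to Mt1 were Dpysl2 (0.990), Cd63 (0.979) and Prkcb (0.975), and nearest to Mt2 were Gyg (0.993), St6galnac6 (0.957) and Adgrl2 (0.941). Mt3 was nearest to Tbx2 (0.998), Tox (0.992) and Gm17750 (0.992). Gpx1 was nearest to Rhoa (0.996), Rpl12 (0.994) and Vamp8 (0.991). The 3 metallothionein genes shared none of these neighbours.

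Within Müller glia, most cells with Mt2 also held Mt1, but so did most Müller glia as a whole (76.4% and 79.5%). Of 89 cells under short-wavelength light, 25 held both, 43 Mt1 alone, 2 Mt2 alone and 19 neither, and of 39 under white light 7, 24, 0 and 8. Spearman's rho of their levels over cells was 0.37 and 0.38, which also carries cell depth. For Mt1 and Mt3 it was 0.19 and 0.32, and for Mt1 and Gpx1 0.06 and −0.10.

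The light comparison asked whether short-wavelength light moved these genes within a class. Mt1 and Mt2 were higher in Müller glia under short-wavelength light than under white light, Mt1 was higher in microglia, and Prdx3 was lower in cones. No gene was called in bipolar cells or rods. A gene with at least 50 UMIs over both libraries was called when its ratio passed 1.2-fold with an interval that leaves out 1. In all 4 cases the libraries also differed in ways given beside each result.

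**Figure D4:**
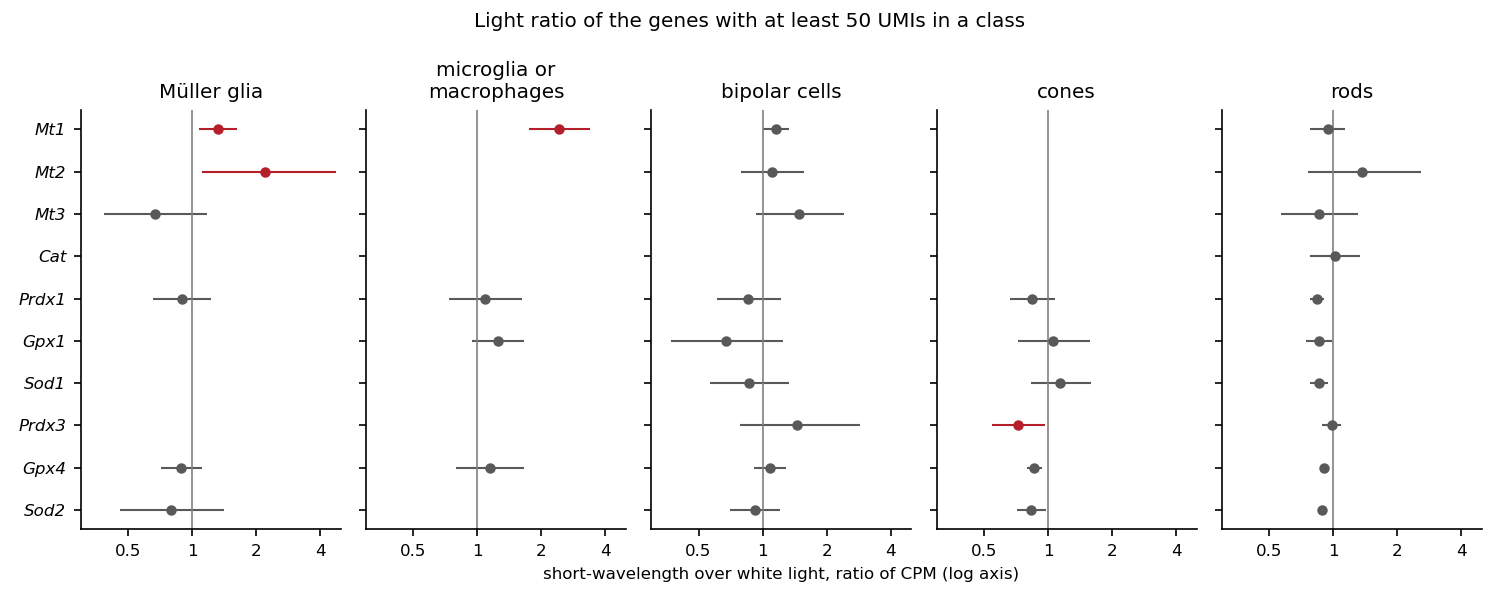
Ratio of CPM under short-wavelength light over white light (log axis) in each class for genes with at least 50 UMIs, with exact 95% counting intervals and called genes in red. Mt1 in Müller glia and microglia and Mt2 in Müller glia lie above 1, and Prdx3 in cones lies below 1. Most rod ratios lie just under 1, with those of Mt2 and Cat above it.

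In Müller glia 2 of 6 tested genes were called higher (background 3.82% of 3693 genes) and 0 lower (background 5.63%). Mt1 had 622 CPM under short-wavelength light and 470 CPM under white light, a ratio of 1.32 (1.08 to 1.62). Mt2 had 80.3 and 36.4 CPM, from 43 and 11 UMIs, a ratio of 2.21 (1.12 to 4.74). Mt3 did not share this direction, at 57.9 and 86.0 CPM (0.673, 0.387 to 1.18), and the median log2 ratio of the 6 genes was −0.16 beside −0.01 over all genes tested. Without the cell with most UMIs of the gene in each library, the ratio was 1.40 (1.13 to 1.74) for Mt1 and 2.73 (1.26 to 6.77) for Mt2. With cells thinned to 1000 UMIs, 0 genes were called, and the log2 ratio of Mt1 was 0.03 instead of 0.40.

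Immediate-early genes, which rise within minutes of cell stress and dissociation, had higher summed levels beside Mt1 and Mt2 in Müller glia. Fos had 609 CPM under short-wavelength light and 169 CPM under white light, Jun 674 and 374 CPM, Junb 185 and 89.4 CPM, and Egr1 185 and 89.4 CPM. Before thinning, the share of Müller glia with a UMI was not higher. It was 40.5% and 41.0% for Fos, 55.1% and 61.5% for Jun, 32.6% and 33.3% for Junb and 27.0% and 35.9% for Egr1. Median depth was lower under short-wavelength light, at 5585 against 7494 UMIs per cell. With cells thinned to equal depth, the share was 14.1% and 7.9% for Fos, 10.6% and 7.9% for Junb and 11.8% and 7.9% for Egr1. For Jun it went the other way, at 23.5% and 34.2%. The intervals of these thinned shares overlap between the libraries for each gene. A single cell held 18.6% to 24.2% of the short-wavelength UMIs of each of these 4 genes. Ier2 (189 and 59.6 CPM, in 29.2% and 23.1% of cells) and Atf3 (37.35 and 6.62 CPM, from 20 and 2 UMIs) also had higher summed levels. Rod RNA moved the other way, with a median rod marker share of 0.244% and 0.334% of UMIs per Müller cell. Among Müller glia below the median rod share of their library, the log2 ratio of Mt1 was 0.33 and 0 genes were called. The part of either in the Mt1 and Mt2 ratios was not tested. Of 21 genes of the wider list tested in Müller glia, 1 was called, Txnip, at 189 and 112 CPM (1.68 times, 1.13 to 2.55).

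In microglia 1 of 4 tested genes was called higher (background 11.5% of 2164 genes) and 0 lower (background 12.7%). Mt1 had 621 CPM under short-wavelength light and 257 CPM under white light, from 196 and 48 UMIs, a ratio of 2.42 (1.75 to 3.39). The single cell with most Mt1 held 10.2% and 20.8% of these UMIs, and without it the ratio was 2.73 (1.91 to 3.99). Among microglia below the median rod marker share of their library, the ratio was 1.10 (0.722 to 1.70), on 79 and 33 UMIs. The call was thus not kept among the cells with less rod RNA, and the part of rod RNA in the ratio was not tested. Microglia had a median rod marker share of 0.182% of UMIs under short-wavelength light and 0.341% under white light. Immediate-early genes were high in these cells, with 5 of 6 at higher values under short-wavelength light: Jun (7132 and 5508 CPM), Junb (3984 and 3340 CPM), Egr1 (3870 and 3367 CPM), Atf3 (2283 and 1820 CPM) and Ier2 (1321 and 1210 CPM). Fos had 2841 and 3030 CPM, and the part of these genes in the Mt1 ratio was not tested. Gpx1, at 513 and 412 CPM, had a ratio of 1.24 (0.943 to 1.66), and of 13 genes of the wider list the ferritin genes Fth1 (4661 and 3592 CPM, 1.30 times, 1.18 to 1.42) and Ftl1 (3065 and 2189 CPM, 1.40 times, 1.25 to 1.58) were higher and Sesn1 was lower.

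In bipolar cells 0 of 9 tested genes were called (background 5.13% higher and 5.39% lower of 6084 genes). Mt1 had 590 and 511 CPM (1.15 times, 1.001 to 1.33), Mt2 107 and 96.9 CPM (1.10 times, 0.790 to 1.56) and Mt3 70.1 and 47.5 CPM (1.48 times, 0.933 to 2.41). The interval of Mt1 reaches up to 1.33 times, and the difference between bipolar cells and microglia in the Mt1 ratio was not tested. From the wider list, 1 of 31 tested was called, Gclc, the catalytic subunit of glutathione synthesis, at 47.0 and 19.0 CPM (2.47 times, 1.25 to 5.44).

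In cones 1 of 6 tested genes was called lower (background 4.50% of 8286 genes) and 0 higher (background 5.37%). Prdx3 had 54.6 CPM under short-wavelength light and 75.5 CPM under white light, a ratio of 0.723 (0.544 to 0.968). Gpx4 (732 and 848 CPM, 0.863, 0.796 to 0.936) and Sod2 (190 and 227 CPM, 0.835, 0.713 to 0.980) lay below 1 with intervals that leave it out, but within 1.2-fold. The median log2 ratio was −0.22 beside 0.02 over all genes tested. Rod marker RNA summed to 5597 CPM in cones under short-wavelength light and 9299 CPM under white light, and its part was not tested. With cells thinned to 1000 UMIs 0 genes were called, and by a mean over cells 3 were. Of 42 genes of the wider list tested, 4 were lower: Gstp1, Nfe2l2 (the transcription factor of the antioxidant response, 25.7 and 39.7 CPM, 0.648, 0.432 to 0.983), Hmox2 and Pgd.

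In rods 0 of 10 genes were called (background 5.13% lower and 4.52% higher of 12845 genes). Gpx4 had 614 CPM under short-wavelength light and 676 CPM under white light (0.908, 0.888 to 0.929), Sod2 145 and 163 CPM (0.886, 0.847 to 0.928), and Prdx1 54.1 and 64.4 CPM (0.840, 0.780 to 0.905). Sod1 had 31.3 and 36.5 CPM (0.856, 0.776 to 0.945) and Gpx1 15.2 and 17.8 CPM (0.853, 0.741 to 0.984). These 5 intervals leave out 1, but none of the 5 ratios passed 1.2-fold. How many of all genes have an interval that leaves out 1 at any fold was not counted. Of the 10 log2 ratios 8 were below 0, beside 47.5% of all 12845 genes tested. Their median was −0.10 beside 0.01 over all genes tested. Cat, Prdx3 and the 3 metallothionein genes had intervals that include 1. By a mean over cells Gpx1, Prdx1 and Mt1 were called lower. From the wider list 4 of 54 tested were lower: Gstp1 (17.8 and 29.5 CPM, 0.603, 0.537 to 0.679), Cp, Mgst3 and Nfe2l2 (32.2 and 39.7 CPM, 0.811, 0.737 to 0.892).

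Rods were also divided into 5 parts by their share of the nuclear RNA Malat1, which stood at 56220 CPM in rods under short-wavelength light and 50670 CPM under white light. Gpx4 was highest in the part with the least Malat1, with 1177 CPM in the lowest part and 460 CPM in the highest under short-wavelength light, against 1117 and 486 CPM under white light. Sod1 had 58.0 CPM in the lowest and 22.5 CPM in the highest part under short-wavelength light, against 56.3 and 20.6 CPM under white light. Sod2 changed less, with 188 and 132 CPM against 208 and 134 CPM. The lowest and highest parts held 2192 and 3053 rods of the short-wavelength library, against 1458 and 596 rods of the white-light library, so the short-wavelength library had relatively more rods with a high Malat1 share. The median log2 light ratio over the 5 parts was 0.07 for Gpx4, −0.08 for Sod1 and −0.09 for Sod2, against −0.14, −0.20 and −0.17 over all rods. For Prdx1 it was −0.17 against −0.23, with 4 of 5 parts below 0, and for all 10 genes together the median was −0.03 against −0.10.

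**Figure D5:**
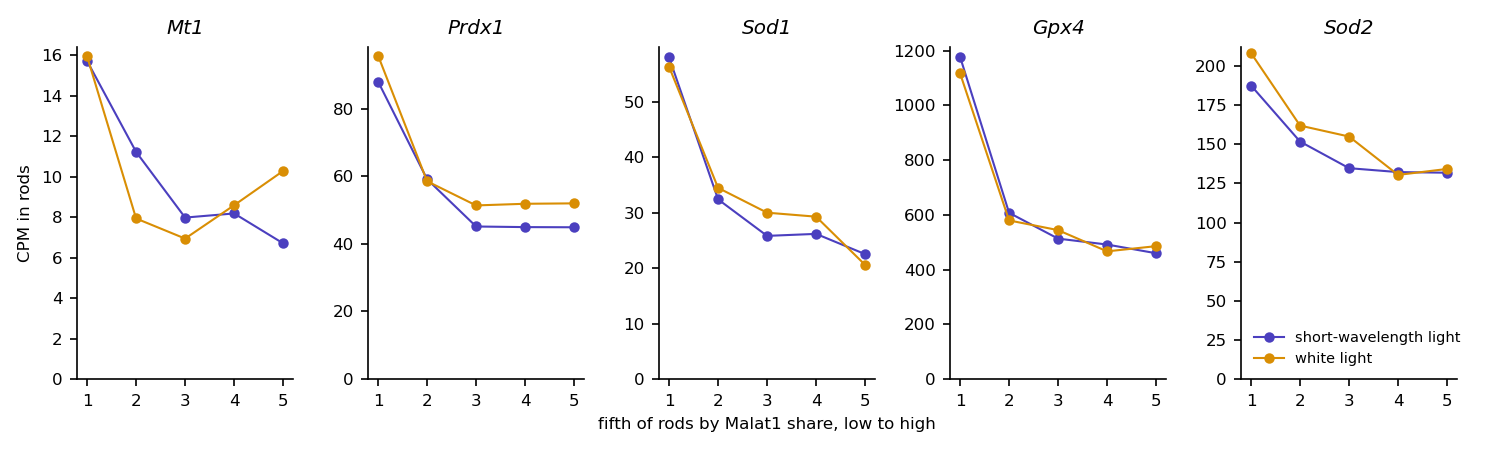
CPM of 5 of the genes in rods divided into 5 parts by Malat1 share, low to high, under short-wavelength light (blue) and white light (orange). Each gene stands highest in the part with the least Malat1, and Gpx4 lies at nearly the same level in both libraries within each part.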

How the data were processed

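Dissociated retina was profiled on the 10x Genomics 3′ platform, with 1 library for each light condition. The authors deposited unnormalized UMI counts for each gene in each barcode. Cell Ranger 9.0.0 wrote them, per the file headers. The submitters' processing notes give the build as mm10 and also name Seurat and edgeR. Other fields of the deposited files hold barcodes and gene names. Neither the chemistry version nor the use of intronic reads is given in the sources used here.

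Barcodes needed 300 or more genes and no more than 20% mitochondrial UMIs (16095 of 16106 and 5695 of 5707). Scrublet scores were computed in scanpy 1.11.5. The automatic threshold marked 1 barcode in each library, and instead the top-scoring barcodes were dropped at a rate of 0.8% for every 1000 barcodes. This took 2075 barcodes (12.9%) under short-wavelength light and 261 (4.58%) under white light. A cell joined a class when its marker UMIs and the number of different markers reached set minimums and no other non-rod class did. The minimums were set from the marker distributions after the data were seen. Class names therefore rest on these markers alone.

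For every class, UMIs of its cells were added up within a library. CPM carries exact Poisson intervals, ratios the exact conditional binomial interval and shares Clopper-Pearson intervals. Log2 ratios add 5 CPM to each value. Light calls ask for 50 UMIs over both libraries, a ratio past 1.2-fold and an interval that leaves out 1, and class calls for 2-fold in both libraries. With 1 library per group, cells were not used as replicates and no p-value was computed. Zeros are given with a floor of 3 counts. Light ratios and calls in rods, cones and Müller glia were tried on simulated Poisson counts. These counts hold no variation between cells, animals or libraries, so the trial checked the calculation alone. The members, marker and gene lists and thresholds were chosen with earlier results of these data known. All 10 members were named. Of called genes of the wider list, at most 8 per direction were named, ordered by the bound nearer to 1. For 4 members the 3 genes of most similar class pattern were named, with 10 CPM added and at least 200 UMIs. Alternatives covered the marker minimum, doublets, cells with at least 1000 UMIs, thinning, a mean over cells, scaling by median of ratios or by TMM (edgeR 4.0.16, R 4.3.3), a pseudocount of 1 CPM, no minimum count, another total, rod share and Malat1 parts. Figures were drawn with matplotlib 3.10.9 in Python 3.11.15.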

Additional observations from a re-analysis of the deposited data

How the results depend on the processing

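With 1 library per condition, counting error alone is covered, and animal, dissociation and library cannot be told apart from light. The number of light calls in rods was 3 instead of 0 by a mean over cells. In cones it was 2 instead of 1 with raised marker minimums, with a total without mitochondrial, ribosomal protein and rod marker genes, and without a minimum of UMIs, 3 by a mean over cells and 0 after thinning to 1000 UMIs. In Müller glia it was 0 instead of 2 after thinning and among cells below the median rod marker share, where the median log2 ratio of the members turned to 0.33. In Müller glia over rods, thinning left 2 genes called higher and 0 lower, and a mean over cells left 0 lower. Cones in place of rods gave 4 higher and 3 lower of 9 tested. Thinning removes most UMIs of the small classes, and the limit on rod share removes cells, which by itself widens every interval. Cat in Müller glia over rods under white light reversed to −0.98 (log2) after thinning, which left no Cat UMI in 38 Müller glia. The other causes were not tested. Of all summaries, those named included, 67 of 80 kept their value within the limits set. Among single genes, 100 of 108 light values in rods, 52 of 56 in cones and 136 of 160 class ratios kept their call and stayed close. In microglia, 2 of 6 alternatives added after the values were seen ended the Mt1 call, thinning (log2 ratio 1.22) and the low rod share (0.13). TMM scaling moved the rod totals by −0.03 (log2). No paired analysis was possible because each group had 1 library.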
